A study of Homo sapiens with 32 samples.

Results

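The lysosome and V-ATPase genes described here are 36 genes, found by symbol in a table of 24249 gene IDs, measured by RNA sequencing in MM.1S cells, an established line from human multiple myeloma. They comprise 16 genes of the V-ATPase, 13 lysosomal enzymes and cofactors, 5 lysosomal membrane proteins and the transcription factors TFEB and TFE3. Cells received a 1 h pulse of either DMSO, the vehicle, or carfilzomib (Cfz), which inhibits the proteasome. The pulse was followed by 12 h of culture in which the medium held either DMSO or all-trans retinoic acid (ATRA) at 10 µM. The groups were DMSO (vehicle in both steps, 3 libraries), ATRA (DMSO pulse, then ATRA, 3 libraries), Cfz (Cfz pulse, then DMSO, 1 library) and ATRA+Cfz (Cfz pulse, then ATRA, 1 library). Each library was read in 4 sequencing lanes, which were averaged. No dose of carfilzomib is stated in the sources used here. Nothing in the labels tells whether the libraries are separate cultures, and the p-values therefore reflect library-to-library spread, which may be technical. The Cfz and ATRA+Cfz libraries have no replicate check, and their tests assume that they vary like the other libraries. A single cell line was studied.

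The lysosome is the acid compartment in which cells break down proteins, lipids and sugars delivered by endocytosis and autophagy. Its acidity comes from the V-ATPase, a rotary proton pump with a cytosolic V1 sector that splits ATP and a membrane V0 sector that carries protons. TFEB and TFE3 are transcription factors that, when they enter the nucleus, raise many lysosomal genes through a DNA element that contains CACGTG. They are controlled largely by phosphorylation, which RNA levels do not show. Plasma cells and myeloma cells make large amounts of immunoglobulin and rely on both the proteasome and the lysosome to dispose of proteins.

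Levels are given in FPM, the fragments assigned to a gene per 1000000 fragments of the library. They are scaled to library depth but not to gene length, so levels of single genes are compared between libraries. Summed levels, and the part of a gene in such a sum, also depend on gene lengths. Differences are on the log2(FPM + 0.5) scale with their standard error (SE). A gene was called higher or lower when limma gave an adjusted p under 0.05 (Benjamini-Hochberg over all 15827 genes tested). All 36 genes passed the filter on low values, a mean over the 4 groups of at least 0.5 FPM. Of these, 31 were at 20 FPM or more in every library, and the lowest count of any member in a library was 14 reads.

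Libraries held 14136937 to 17155331 reads, and 3 reads, taken as the floor of detection, correspond to 0.175 to 0.212 FPM. DMSO 3 stood apart from the other DMSO libraries: chi-square per degree of freedom over genes was 10.5 and 11.0 against them, beside 1.81 for the other DMSO pair and 1.79 to 2.89 for pairs of ATRA libraries. Its share of mitochondrial reads was 5.85%, beside 4.09% to 4.12% in DMSO 1 and DMSO 2, 3.67% to 3.89% with ATRA, 5.43% in Cfz and 5.72% in ATRA+Cfz. DMSO 3 was the lowest of the 3 DMSO libraries for 21 of the 36 genes. The counts of calls over all 36 genes are given with and without it. All 7 plasma cell markers were in the table, with a summed level of 3566 to 4054 FPM with DMSO, 6567 to 6628 FPM with ATRA, 3657 FPM in Cfz and 5849 FPM in ATRA+Cfz. With ATRA, 5 of them were called higher and 2 lower, and the part of this shift and of the mitochondrial share in the results was not tested. Of the 7 markers of myeloid cells, which are rich in lysosomes, 4 were in the table and summed to 0.758 to 1.03 FPM with DMSO, 1.32 to 2.14 FPM with ATRA, 1.57 FPM in Cfz and 2.19 FPM in ATRA+Cfz. CD14 reached at most 0.257 FPM. None of the 4 mature B cell markers was listed in the table, and T and NK cell markers summed to at most 1.61 FPM. Stromal markers summed to 12.0 to 24.4 FPM over all libraries, nearly all of it COL6A3, with COL1A1 at 0.232 FPM or less, and epithelial markers to at most 3.47 FPM. Fewer cells of a type and less RNA per cell cannot be told apart in such bulk samples.

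Promoter windows from RefSeq (GRCh38.p14, 250 bases before to 50 after the start) were found for 26 of the 36 genes. They were searched on both strands for TCACGTGA, the core of the element that TFEB and TFE3 bind, and for TGACNNNGC, a core of the element bound by NRF1 and NRF2, factors that act on proteasome and stress genes. TCACGTGA stood in 6 of the 26 windows (23.1%) and in 1.04% of all 27305 promoters. TGACNNNGC stood in 12 of the 26 windows (46.2%) and in 13.6% of all promoters. The shorter CACGTG, which every TCACGTGA contains, stood in 9 windows (34.6%) and in 7.43% of all promoters. A TGACNNNGC overlapped a CACGTG in LAMP1 and in GAA. The stretches below are shown because their genes took different courses in the data: ATP6V1G1 and CTSA were called higher with ATRA, LAMP1 lower with ATRA, MCOLN1 lower in ATRA+Cfz, and ATP6V0D1 in no treatment. LAMP1 and MCOLN1 each hold another TCACGTGA in the window, and all of these genes but MCOLN1 also hold TGACNNNGC. Capitals mark TCACGTGA, and positions count back from -1, the base before the start.
ATP6V1G1, chr9:114587685-114587742, plus strand, TCACGTGA at -59 to -52: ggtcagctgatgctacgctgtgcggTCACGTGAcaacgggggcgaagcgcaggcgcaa
CTSA, chr20:45891284-45891334, plus strand, TCACGTGA at -26 to -19: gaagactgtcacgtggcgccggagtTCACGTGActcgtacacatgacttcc
LAMP1, chr13:113297185-113297238, plus strand, TCACGTGA at -29 to -22: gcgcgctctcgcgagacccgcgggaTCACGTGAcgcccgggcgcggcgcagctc
MCOLN1, chr19:7522584-7522623, plus strand, TCACGTGA at -15 to -8: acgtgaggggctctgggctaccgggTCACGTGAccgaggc
ATP6V0D1, chr16:67481185-67481242, minus strand, TCACGTGA at -60 to -53: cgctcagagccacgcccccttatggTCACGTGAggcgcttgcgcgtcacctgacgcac

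Shown next are 5 genes that have no TCACGTGA in their window but hold TGACNNNGC, of which CTSZ, CTSD and ATP6V0A1 were higher with ATRA and CTSC and CTSL lower. TGACNNNGC or its reverse complement is in capitals, and CTSD and CTSC hold the same letters there. Of the 5, CTSD alone also holds CACGTG, starting at -47, and it holds another TGACNNNGC just after the start.
CTSZ, chr20:59007429-59007487, minus strand, reverse complement at -208 to -200: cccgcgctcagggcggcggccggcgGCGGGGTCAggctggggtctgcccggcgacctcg
CTSD, chr11:1764089-1764147, minus strand, forward at -195 to -187: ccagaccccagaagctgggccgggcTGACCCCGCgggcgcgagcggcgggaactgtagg
ATP6V0A1, chr17:42458737-42458795, plus strand, forward at -116 to -108: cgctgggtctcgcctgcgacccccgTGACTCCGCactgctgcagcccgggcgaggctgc
CTSC, chr11:88337768-88337826, minus strand, forward at -65 to -57: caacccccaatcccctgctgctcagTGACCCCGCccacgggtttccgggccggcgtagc
CTSL, chr9:87726071-87726118, plus strand, reverse complement at -23 to -15: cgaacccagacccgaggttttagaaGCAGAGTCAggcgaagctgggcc

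Read against the calls, TCACGTGA stood in the windows of 2 of the 11 genes with a window that were higher with ATRA, in 1 of 6 that were lower and in 3 of 9 that were not called. In Cfz it stood in 0 of 6 higher, 0 of 3 lower and 6 of 17 not called, and in ATRA+Cfz in 1 of 8 higher, 2 of 7 lower and 3 of 11 not called. TGACNNNGC stood in 7 of the 11 higher with ATRA, 3 of the 6 lower and 2 of the 9 not called. In Cfz it stood in 3 of 6 higher, 1 of 3 lower and 8 of 17 not called, and in ATRA+Cfz in 5 of 8 higher, 3 of 7 lower and 4 of 11 not called. The shorter CACGTG stood in 4 of the 11 higher with ATRA, 1 of the 6 lower and 4 of the 9 not called. For Cfz the CACGTG counts were 2 of 6 higher, 1 of 3 lower and 6 of 17 not called. For ATRA+Cfz they were 2 of 8 higher, 3 of 7 lower and 4 of 11 not called. These matches describe letters in a window and were not tested.

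With ATRA, 17 of the 36 genes were higher than with DMSO, 6 were lower and 13 were not called. The background was 48.7% of all genes tested called, 21.3% higher and 27.4% lower, beside 47.2% and 16.7% of the members. The members' median difference was 0.11, and that of all genes was -0.03. In 18 members all ATRA libraries lay above all DMSO libraries, in 8 below, and in 10 the groups overlapped; over all genes, 25.5% lay above and 31.1% below. Without DMSO 3, 17 members were higher and 11 lower, the additional lower ones being ATP6V0A2, GAA, NEU1, NPC1 and MCOLN1. In that setting 3532 of all 15836 genes tested were higher and 4694 lower. Higher calls then made up 60.7% of the members' calls and 42.9% of those of all genes.

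In the Cfz library, 9 members were higher than with DMSO, 4 lower and 23 not called, beside a background of 24.9% of genes called, 7.94% higher and 17% lower. The members' shares were 25% higher and 11.1% lower. Their median difference was 0.03, beside -0.08 for all genes. Cfz lay above every DMSO library for 17 members and below every one for 11, beside 25.3% and 46.4% of all genes. Without DMSO 3, 11 were higher and 7 lower, beside 1682 higher and 3760 lower of all 15836 genes tested. In the ATRA+Cfz library, 14 members were higher than with DMSO, 7 lower and 15 not called, beside a background of 50.6% called, 20% higher and 30.5% lower. The members' shares were 38.9% and 19.4%. The median difference was 0.06, beside -0.05 for all genes. ATRA+Cfz lay above every DMSO library for 18 members and below for 15, beside 36.5% and 45% of all genes. Without DMSO 3, 16 were higher and 10 lower, beside 3508 higher and 5280 lower of all 15836 genes tested. These comparisons share the DMSO libraries and are not independent of each other. The 6 genes higher in all 3 treatments were ATP6V0A1, ATP6V1A, CTSD, GLA, PSAP and TFE3. The ATRA call of TFE3 (limma adjusted p 0.0434) was lost with DESeq2 (0.113), without the filter (0.0618), with a replicate block (0.0634) and without any 1 of 5 libraries. SCARB2 was lower in all 3, and 7 genes were called in none. The share of all genes called in all 3 treatments, or in none, was not counted. These joint counts are therefore a description without a background. The calls of all 9 genes higher in Cfz and all 14 higher in ATRA+Cfz held in every alternative setting run.

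**Figure D1:**
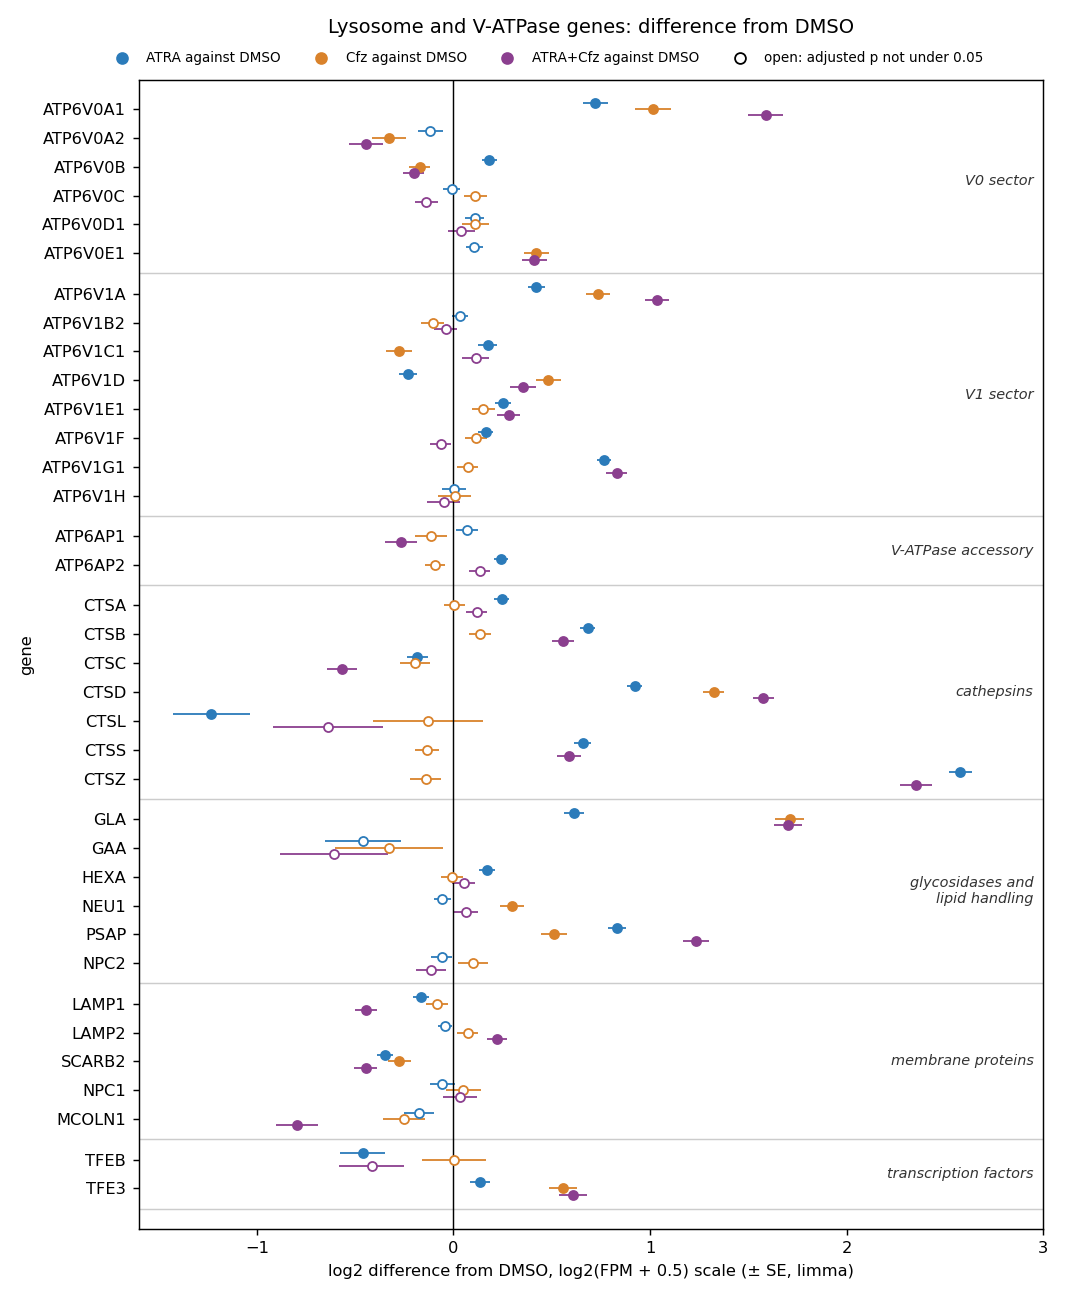
Difference from DMSO of the 36 genes with ATRA, in Cfz and in ATRA+Cfz (log2(FPM + 0.5) scale, points ± SE from limma; filled points have an adjusted p under 0.05). CTSZ at 2.58 with ATRA and 2.35 in ATRA+Cfz lies farthest to the right, and CTSL at -1.23 with ATRA farthest to the left.

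The V-ATPase genes did not move together. Of the 16, 8 were higher and 1 lower with ATRA, 4 higher and 3 lower in Cfz, and 6 higher and 3 lower in ATRA+Cfz. The shares were 50% and 6.25%, 25% and 18.8%, and 37.5% and 18.8%. Those of all genes were 21.3% and 27.4%, 7.94% and 17%, and 20% and 30.5%. The lower share in Cfz was thus near that of all genes. The summed level of the 16 was 1444 to 1501 FPM with DMSO, 1807 to 1813 FPM with ATRA, 1780 FPM in Cfz and 2079 FPM in ATRA+Cfz. ATP6V1A alone made up 257 to 287 FPM of it with DMSO, 362 to 374 FPM with ATRA, 458 FPM in Cfz and 565 FPM in ATRA+Cfz. The genes that moved most were ATP6V0A1, ATP6V1A and ATP6V1G1, while core subunits such as ATP6V1B2 and ATP6V0D1 were called in no treatment. With DESeq2 or median-ratio scaling the lower calls in Cfz were 0 and 1, and with DESeq2 or edgeR the lower calls in ATRA+Cfz were 1 each. Without DMSO 3, the V-ATPase genes called were 8 higher and 2 lower with ATRA, 5 and 4 in Cfz, and 7 and 4 in ATRA+Cfz.

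In the V0 sector, ATP6V0A1, the a1 isoform of the subunit that carries the proton path and directs the pump to its membrane, was 75.5, 79.5 and 64.6 FPM in DMSO 1 to 3. It was 123, 121 and 118 FPM in the ATRA libraries, 148 FPM in Cfz and 220 FPM in ATRA+Cfz. Every treated library lay above every DMSO library, and ATRA+Cfz was the highest of all. The differences from DMSO were 0.72 ± 0.06 with ATRA (limma adjusted p 2.6e-06), 1.01 ± 0.09 in Cfz (2.2e-05) and 1.59 ± 0.09 in ATRA+Cfz (7.2e-08). ATP6V0A2, the a2 isoform associated with the Golgi and endosomes, went the other way: it was 30.8 to 35.3 FPM with DMSO, 26.2 FPM in Cfz and 24.1 FPM in ATRA+Cfz. Its difference was -0.33 ± 0.09 in Cfz (adjusted p 0.0174 with limma and 0.202 with DESeq2) and -0.45 ± 0.09 in ATRA+Cfz (limma adjusted p 0.0011), and it was not called with ATRA.

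The small membrane subunit ATP6V0E1 was higher in Cfz (0.42 ± 0.06) and ATRA+Cfz (0.41 ± 0.06). ATP6V0B, a proteolipid of the proton-carrying ring, was 97.3 to 102 FPM with DMSO, 110 to 116 FPM with ATRA, 88.5 FPM in Cfz and 86.6 FPM in ATRA+Cfz. It was higher with ATRA (0.18 ± 0.04) and lower in the other treatments, by differences of -0.17 ± 0.05 and -0.20 ± 0.05. The Cfz call of ATP6V0B was lost without any 1 of DMSO 1, DMSO 2 and ATRA 1 to 3 (adjusted p 0.0616 to 0.0894), and edgeR and DESeq2 made neither of its lower calls. The other proteolipid gene, ATP6V0C, and ATP6V0D1, which links the ring to the stalk, were called in none of the 3 treatments. With edgeR and with median-ratio scaling, ATP6V0D1 and ATP6V0E1 were called higher with ATRA, which brings the V0 genes higher with ATRA from 2 to 4 of 6. The 2 called by limma were 33.3% of the 6, beside 21.3% of all genes.

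In the V1 sector, 5 of 8 genes were higher with ATRA and 1 lower, 2 were higher and 1 lower in Cfz, and 4 were higher and 0 lower in ATRA+Cfz. That count of 0 is from limma, edgeR and DESeq2 also gave 0, and so did an unadjusted p under 0.05. The V1 shares were 62.5% higher and 12.5% lower with ATRA, 25% and 12.5% in Cfz, and 50% and 0% in ATRA+Cfz. Over all genes they were 21.3% and 27.4%, 7.94% and 17%, and 20% and 30.5%. With median-ratio scaling the V1 genes higher in Cfz were 4, with ATP6V1E1 and ATP6V1F added. ATP6V1A, the catalytic subunit, was 283, 287 and 257 FPM with DMSO and 362, 371 and 374 FPM with ATRA. It was 458 FPM in Cfz and 565 FPM in ATRA+Cfz. The groups did not overlap, and the differences were 0.42 ± 0.04 (adjusted p 8.8e-06), 0.74 ± 0.06 (1.3e-05) and 1.04 ± 0.06 (9.6e-08). ATP6V1B2, the non-catalytic partner with which it forms the ATP-splitting head, was 104 to 111 FPM in the DMSO libraries, against 105 to 111 FPM in the ATRA libraries. It was 98.8 FPM in Cfz and 104 FPM in ATRA+Cfz. The 95% interval of the ATP6V1B2 difference was -0.06 to 0.13 with ATRA, -0.23 to 0.02 in Cfz and -0.17 to 0.09 in ATRA+Cfz.

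ATP6V1G1, a subunit of the peripheral stalk, was called in both treatments that contained ATRA. It was 171, 166 and 171 FPM with DMSO, 295, 276 and 294 FPM with ATRA, 178 FPM in Cfz and 302 FPM in ATRA+Cfz. All libraries with ATRA lay above all those without it. The differences were 0.77 ± 0.04 with ATRA (adjusted p 2.2e-08) and 0.83 ± 0.05 in ATRA+Cfz (1.6e-07), and 0.07 ± 0.05 in Cfz (adjusted p 0.358, 95% interval -0.04 to 0.19). Its stalk partner ATP6V1E1 was higher with ATRA (0.25 ± 0.04) and in ATRA+Cfz (0.28 ± 0.06).

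ATP6V1D, of the central shaft, was the V-ATPase member lower with ATRA: 58.2 to 63.5 FPM with DMSO, 50.8 to 53.0 FPM with ATRA, 85.3 FPM in Cfz and 77.9 FPM in ATRA+Cfz. The differences were -0.23 ± 0.05, 0.48 ± 0.06 and 0.35 ± 0.06. It shares 269 of 4251 exonic bases with EIF2S1 on the opposite strand, which reached 131 FPM, and no source used here states whether the counting used strand. ATP6V1C1, a regulator of assembly, was higher with ATRA (0.17 ± 0.05, lost without ATRA 1 at an adjusted p of 0.0571). It was lower in Cfz (-0.28 ± 0.07, adjusted p 0.0126 with limma, 0.052 with median-ratio scaling and 0.218 with DESeq2). ATP6V1F was higher with ATRA (0.16 ± 0.04), and ATP6V1H was called in no treatment. Of the accessory subunits, ATP6AP2, the prorenin receptor, was higher with ATRA (0.24 ± 0.04). ATP6AP1 was lower in ATRA+Cfz (-0.27 ± 0.08, adjusted p 0.0156 with limma, 0.055 with edgeR and 0.131 with DESeq2).

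**Figure D2:**
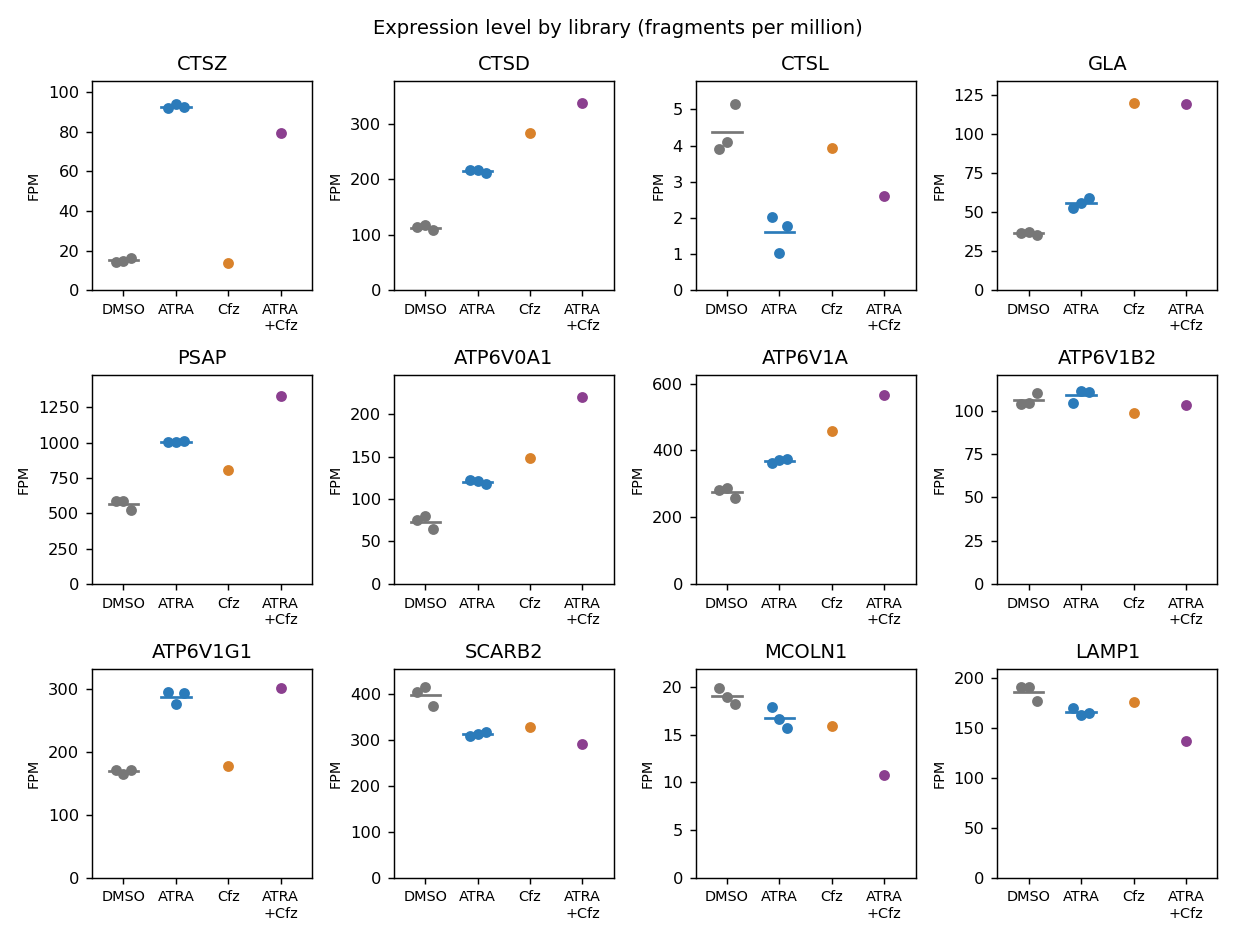
Level in FPM of 12 genes by library (linear axes from 0; points are libraries, bars are the means of the 3 DMSO and of the 3 ATRA libraries). CTSZ and ATP6V1G1 are high in every library with ATRA, GLA is highest in the 2 libraries with Cfz, and ATP6V1B2 stays between 98.8 and 111 FPM.

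All 7 cathepsins, the lysosomal proteases, were called with ATRA, and 1 of them, CTSD, also in Cfz. With ATRA 5 of 7 were higher and 2 lower, in Cfz 1 was higher and 0 lower, and in ATRA+Cfz 4 were higher and 1 lower. The count of 0 is from limma, and edgeR and DESeq2 also gave 0. At an unadjusted p under 0.05, and without DMSO 3, it was 1 (CTSC). The cathepsin shares were 71.4% higher and 28.6% lower with ATRA, 14.3% and 0% in Cfz, and 57.1% and 14.3% in ATRA+Cfz. Those of all genes were 21.3% and 27.4%, 7.94% and 17%, and 20% and 30.5%. Without DMSO 3, the Cfz count of higher cathepsins was 2, CTSB being the addition, and it was also 2 with edgeR and with median-ratio scaling. The summed level of the 13 enzymes and cofactors was 1342 to 1456 FPM with DMSO, 2152 to 2200 FPM with ATRA, 1912 FPM in Cfz and 2612 FPM in ATRA+Cfz. PSAP alone made up 521 to 590 FPM of it with DMSO, 1002 to 1011 FPM with ATRA, 805 FPM in Cfz and 1331 FPM in ATRA+Cfz.

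CTSZ, a carboxypeptidase also called cathepsin X, had the largest difference of the 36 genes with ATRA. It was 14.4, 14.7 and 16.3 FPM with DMSO and 92.0, 93.8 and 92.3 FPM with ATRA. It was 13.6 FPM in Cfz and 79.3 FPM in ATRA+Cfz. The libraries with and without ATRA were far apart, at a 6.13-fold ratio of mean FPM (15.1 ± 1.04 with DMSO and 92.7 ± 0.967 with ATRA, SD, n = 3 each). The difference was 2.58 ± 0.06 with ATRA (limma adjusted p 5.7e-11), 2.35 ± 0.08 in ATRA+Cfz (2.3e-09) and -0.14 ± 0.08 in Cfz (adjusted p 0.236, 95% interval -0.32 to 0.04).

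CTSD, the main aspartic protease of the lysosome, was 115, 117 and 108 FPM with DMSO, 216, 218 and 211 FPM with ATRA, 284 FPM in Cfz and 338 FPM in ATRA+Cfz. Each treated library lay above every DMSO library, and both libraries with Cfz lay above the ATRA libraries. The differences were 0.92 ± 0.04 with ATRA (adjusted p 6.1e-09), 1.32 ± 0.05 in Cfz (1.1e-07) and 1.58 ± 0.05 in ATRA+Cfz (2.3e-09). The cysteine proteases CTSB and CTSS rose with ATRA, by differences of 0.68 ± 0.04 and 0.66 ± 0.04, and in ATRA+Cfz, by 0.56 ± 0.06 and 0.59 ± 0.06, and were not called in Cfz. CTSA, the protective protein of the neuraminidase complex, rose by 0.25 ± 0.04 with ATRA.

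CTSL, another cysteine protease, was 3.90, 4.10 and 5.15 FPM with DMSO and 2.02, 1.04 and 1.79 FPM with ATRA. It was 3.94 FPM in Cfz and 2.62 FPM in ATRA+Cfz. The DMSO and ATRA libraries did not overlap, although the lowest of these values rests on 15 reads, and the difference was -1.23 ± 0.20 with ATRA (limma adjusted p 2.9e-04). In ATRA+Cfz it was -0.64 ± 0.28 (adjusted p 0.0785), and without ATRA 2 the adjusted p of that comparison was 0.0342. Its pseudogene CTSLP2 was at most 0.233 FPM. CTSC, which activates granule proteases, was 134 to 155 FPM with DMSO, 127 to 132 FPM with ATRA and 99.5 FPM in ATRA+Cfz. The CTSC call was lost in the ATRA comparison without ATRA 1, DMSO 1 or DMSO 2 (limma adjusted p 0.0631 to 0.0669) and with DESeq2 (0.0567). In ATRA+Cfz the CTSC difference was -0.57 ± 0.08 (limma adjusted p 7.5e-05).

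Among 6 genes for glycosidases and lipid handling, 3 were higher with ATRA, 3 in Cfz and 2 in ATRA+Cfz. None was called lower by limma in these comparisons, and edgeR and DESeq2 also gave 0 lower. At an unadjusted p under 0.05 the lower genes were 1 with ATRA, 0 in Cfz and 1 in ATRA+Cfz. Without DMSO 3, 2 were lower with ATRA and 1 in ATRA+Cfz. With all libraries the higher shares were 50%, 50% and 33.3%, beside 21.3%, 7.94% and 20% of all genes. Lower calls made up 27.4%, 17% and 30.5% of all genes. GLA, the alpha-galactosidase deficient in Fabry disease, was 36.3, 37.2 and 35.1 FPM with DMSO and 52.4, 56.0 and 58.8 FPM with ATRA. It was 120 FPM in Cfz and 119 FPM in ATRA+Cfz. All treated libraries lay above DMSO, and the libraries with Cfz lay far above those with ATRA only. The differences were 0.61 ± 0.05 with ATRA (adjusted p 1.5e-06), 1.71 ± 0.07 in Cfz (1.2e-07) and 1.70 ± 0.07 in ATRA+Cfz (7.9e-09).

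PSAP, the precursor of the saposins that present lipids to hydrolases, was 590, 586 and 521 FPM with DMSO, 1002, 1007 and 1011 FPM with ATRA, 805 FPM in Cfz and 1331 FPM in ATRA+Cfz. The groups did not overlap, and the differences were 0.83 ± 0.05 (adjusted p 6e-08), 0.51 ± 0.07 (2.8e-04) and 1.24 ± 0.07 (4e-08). HEXA, a subunit of beta-hexosaminidase, was higher with ATRA (0.17 ± 0.04), and NEU1, the lysosomal sialidase, was higher in Cfz (0.30 ± 0.06). NPC2, which carries cholesterol inside the lysosome, was called in no treatment. GAA, the acid alpha-glucosidase, was 1.27 to 2.22 FPM in the DMSO libraries, against 1.11 to 1.21 FPM in the ATRA libraries, and its difference of -0.46 ± 0.19 had an adjusted p of 0.0704, or 0.0129 without DMSO 3.

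Of the 5 membrane proteins 0 were higher and 2 lower with ATRA, 0 higher and 1 lower in Cfz, and 1 higher and 3 lower in ATRA+Cfz, by limma. For ATRA and for Cfz, edgeR, DESeq2 and an unadjusted p under 0.05 also gave 0 higher. Their summed level was 786 to 852 FPM with DMSO, 705 to 715 FPM with ATRA, 750 FPM in Cfz and 690 FPM in ATRA+Cfz. Without DMSO 3, 4 were lower with ATRA and 2 in Cfz. With all libraries the shares higher and lower were 0% and 40% with ATRA, 0% and 20% in Cfz, and 20% and 60% in ATRA+Cfz. Those of all genes were 21.3% and 27.4%, 7.94% and 17%, and 20% and 30.5%. The lower share in Cfz, of 5 genes, was near that of all genes. SCARB2 (LIMP-2), the receptor that carries glucocerebrosidase to the lysosome, was 403, 414 and 373 FPM with DMSO and 308, 311 and 317 FPM with ATRA. It was 327 FPM in Cfz and 291 FPM in ATRA+Cfz, so that every treated library lay below every DMSO library. The SCARB2 differences were -0.35 ± 0.04 (adjusted p 2.7e-05), -0.28 ± 0.06 (0.00537) and -0.45 ± 0.06 (5.2e-05).

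LAMP1, an abundant glycoprotein of the lysosomal membrane, was 177 to 191 FPM with DMSO, 163 to 170 FPM with ATRA, 175 FPM in Cfz and 136 FPM in ATRA+Cfz. Its difference was -0.16 ± 0.04 with ATRA (adjusted p 0.00477 with limma and 0.0522 with DESeq2) and -0.45 ± 0.06 in ATRA+Cfz (4.1e-05). The related LAMP2 was higher in ATRA+Cfz (0.22 ± 0.05) and not called in the single treatments. MCOLN1, the calcium channel of the lysosome, was 18.2 to 19.8 FPM with DMSO, 15.7 to 17.9 FPM with ATRA, 15.9 FPM in Cfz and 10.7 FPM in ATRA+Cfz. The -0.80 ± 0.11 of MCOLN1 in ATRA+Cfz (adjusted p 7.1e-05) is uncertain because the lanes of that library differed by more than sampling noise, at 14.0, 14.6, 8.25 and 6.00 FPM. It was the 1 gene of the 36 with such lanes. NPC1, the cholesterol exporter, was called in no treatment. It shares 604 of 10102 exonic bases with RMC1 on the opposite strand, which reached 41.0 FPM.

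TFEB was called lower with ATRA, and TFE3 was called higher in both libraries with Cfz. TFEB was 7.75, 7.54 and 7.29 FPM with DMSO and 4.97, 6.12 and 4.97 FPM with ATRA. It was 7.55 FPM in Cfz and 5.52 FPM in ATRA+Cfz. The 4 libraries with ATRA lay below the 4 without it, each value resting on 78 to 133 reads. The TFEB difference was -0.46 ± 0.12 with ATRA (adjusted p 0.00617 with limma and 0.0759 with DESeq2), 0.00 ± 0.16 in Cfz (95% interval -0.36 to 0.37) and -0.41 ± 0.16 in ATRA+Cfz (adjusted p 0.055). Without ATRA 2 or without DMSO 3 the adjusted p of the ATRA+Cfz difference of TFEB was 0.0437 and 0.0463.

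TFE3 was 35.5, 38.6 and 38.8 FPM with DMSO and 41.5, 41.0 and 41.5 FPM with ATRA. It was 55.6 FPM in Cfz and 57.6 FPM in ATRA+Cfz, the highest values. The TFE3 differences were 0.56 ± 0.07 in Cfz (adjusted p 2.7e-04) and 0.61 ± 0.07 in ATRA+Cfz (2.2e-05). With ATRA the difference was 0.14 ± 0.05 (adjusted p 0.0434), a call lost without any 1 of ATRA 1 to 3, DMSO 1 and DMSO 2 (0.054 to 0.16). The related factor TFEC was 1.67 to 2.48 FPM with DMSO, 4.38 to 4.59 FPM with ATRA, 6.62 FPM in Cfz and 7.36 FPM in ATRA+Cfz, and was called higher in each. MITF was higher with ATRA (0.35 ± 0.10) and not called in Cfz or ATRA+Cfz.

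**Figure D3:**
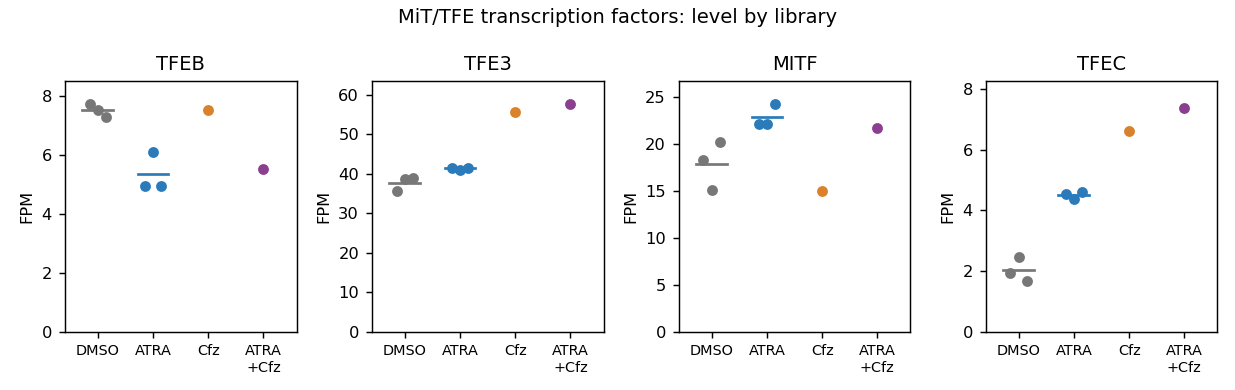
Level in FPM by library of TFEB, TFE3 and the related MITF and TFEC (linear axes from 0; points are libraries, bars are means of 3 libraries). TFEB is lowest in the libraries with ATRA (4.97 to 6.12 FPM), TFE3 is highest in those with Cfz (55.6 and 57.6 FPM), and TFEC is above DMSO in every treated library.

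Across the 8 libraries, the genes outside the group whose levels were most like those of TFEB, among 9170 genes of at least 10 FPM on average, were KLHL2 (Pearson r 0.9693), FZD6 (0.9678) and SFMBT1 (0.9657). For the mean of the V-ATPase members they were ISG20 (r 0.9958), RRP12 (0.9945) and DNPEP (0.9929). These libraries fall into treatment groups, so r describes a shared order over treatments.

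Whether ATRA acted alike with and without the Cfz pulse was asked by comparing ATRA+Cfz minus Cfz with ATRA minus DMSO, which share no library. ATRA+Cfz was higher than Cfz for 10 members and lower for 5, or 27.8% and 13.9%, beside a background of 30.4% called, 12.8% higher and 17.6% lower. Without DMSO 3, which enters only the estimate of spread here, 11 were higher and 8 lower. Of all 15836 genes tested in that setting, 2814 were higher and 3461 lower. CTSZ again had the largest of these differences, 2.50 ± 0.10 (adjusted p 3.1e-08), followed by ATP6V1G1 at 0.76 ± 0.06 (6e-06), PSAP at 0.73 ± 0.08 (4.5e-05) and CTSS at 0.72 ± 0.08 (3e-05). MCOLN1 (-0.55 ± 0.13), CTSC (-0.37 ± 0.09) and LAMP1 (-0.36 ± 0.07) were the lowest of those called. The MCOLN1 call was lost with DESeq2 (adjusted p 0.0884), and it rests on the ATRA+Cfz library, whose lanes differed for this gene.

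The interaction, the ATRA difference after Cfz minus that without Cfz, was called for 3 members, all lower (8.33%, beside a background of 2.3% in either direction and 1.31% lower). None was higher by limma, edgeR or DESeq2, and at an unadjusted p under 0.05 there were 2 higher and 8 lower. CTSD had an interaction of -0.67 ± 0.08 (adjusted p 0.00737): the ATRA difference was 0.92 without Cfz and 0.25 ± 0.07 after it. GLA had -0.62 ± 0.10 (adjusted p 0.0172): 0.61 without Cfz and -0.01 ± 0.09 after it. ATP6V1F had -0.34 ± 0.08 (adjusted p 0.0449 with limma), a call lost with edgeR (0.0528), with DESeq2 (0.0732) and without the filter (0.0584). For CTSZ and ATP6V1G1 the interaction was -0.08 ± 0.11 (95% interval -0.33 to 0.17) and -0.01 ± 0.07 (-0.17 to 0.16).

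None of these 3 interaction calls held in every alternative setting run, and the calls changed when single libraries were left out. The estimates moved less: without ATRA 1 they were -0.67 for CTSD, -0.66 for GLA and -0.33 for ATP6V1F. With all libraries they were -0.67, -0.62 and -0.34. The lower calls were 0 without ATRA 1, 1 without ATRA 2 (CTSD) and 1 without ATRA 3 (CTSD). They were 2 without DMSO 1 or DMSO 2 and 5 without DMSO 3, where LAMP2 and SCARB2 were also called higher. Over all genes tested, 364 were called in the interaction with all libraries. The count was 2 without ATRA 1, 8 without ATRA 2 and 35 without ATRA 3. It was 240 without DMSO 1, 164 without DMSO 2 and 1985 without DMSO 3, of which 951 were higher and 1034 lower.

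Set against ATRA, the ATRA+Cfz library was higher for 9 members and lower for 7 (25% and 19.4%, beside a background of 30.9% called, 10.6% higher and 20.2% lower). GLA led with 1.09 ± 0.07 (adjusted p 3.3e-06), followed by ATP6V0A1 at 0.87 ± 0.09 (5.6e-05) and CTSD at 0.65 ± 0.05 (1.4e-05). Without DMSO 3, 10 members were higher and the lower members were 12, the additions being ATP6AP2, CTSA, CTSB, CTSZ and SCARB2. Of all 15836 genes tested in that setting, 2299 were higher and 4090 lower.

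**Figure D4:**
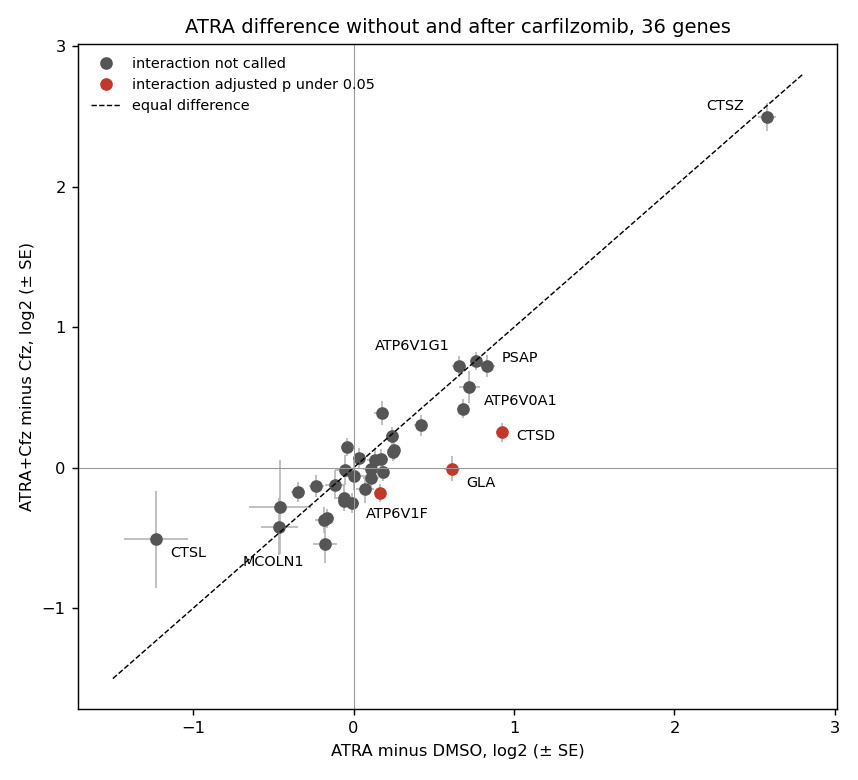
ATRA difference after the Cfz pulse (ATRA+Cfz minus Cfz) against that without it (ATRA minus DMSO) for the 36 genes, in log2 units with SE; the dashed line marks equal differences. CTSZ, ATP6V1G1 and PSAP lie near the line, and the 3 genes called in the interaction (CTSD, GLA and ATP6V1F) lie below it.

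Other lysosome genes were counted in 4 lists, shown in the plot of list shares. The shares of all genes called higher and lower, against which they are read, were 21.3% and 27.4% with ATRA, 7.94% and 17% in Cfz, and 20% and 30.5% in ATRA+Cfz. Of 16 tested genes of other V-ATPase subunits and assembly factors, 7 were higher and 3 lower with ATRA, 2 and 5 in Cfz, and 4 and 5 in ATRA+Cfz. These are shares of 43.8% and 18.8%, 12.5% and 31.2%, and 25% and 31.2%, the last pair being near those of all genes. TCIRG1, the a3 isoform, was 129 to 157 FPM with DMSO, 101 to 107 FPM with ATRA, 121 FPM in Cfz and 70.9 FPM in ATRA+Cfz, with differences of -0.49 ± 0.06, -0.27 ± 0.09 and -1.03 ± 0.09. DMXL2, of the complex that assembles the pump, was lower by -1.01 ± 0.10 with ATRA and -1.43 ± 0.15 in ATRA+Cfz. NCOA7, which binds the V1 sector, was higher by 0.47 ± 0.06 and 0.99 ± 0.09. Without DMSO 3 the lower genes of this list with ATRA were 5, and with DESeq2 those in Cfz were 1 and in ATRA+Cfz 3.

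Of 47 other hydrolases and cofactors, 15 were higher and 14 lower with ATRA, 9 and 10 in Cfz, and 12 and 20 in ATRA+Cfz. The shares were 31.9% and 29.8%, 19.1% and 21.3%, and 25.5% and 42.6%, so that the lower shares with ATRA and in Cfz were close to the 27.4% and 17% of all genes. The phospholipase-like PLBD2 was 17.7 to 18.5 FPM with DMSO, 23.1 to 26.9 FPM with ATRA, 48.7 FPM in Cfz and 64.2 FPM in ATRA+Cfz, and it was higher in each treatment. The serine carboxypeptidase SCPEP1 was also higher in each (0.69 ± 0.04, 0.65 ± 0.06 and 1.03 ± 0.06). CTSV, a close relative of CTSL, was lower in each (-1.12 ± 0.16, -0.72 ± 0.22 and -1.63 ± 0.22). With DESeq2 the lower genes of this list were 9 with ATRA and 1 in Cfz, and without DMSO 3 those in Cfz were 17.

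Of 41 other membrane proteins and sorting receptors, 16 were higher and 9 lower with ATRA, 2 and 7 in Cfz, and 11 and 13 in ATRA+Cfz. The shares were 39% and 22%, 4.88% and 17.1%, and 26.8% and 31.7%. The lower shares in Cfz and ATRA+Cfz were near the 17% and 30.5% of all genes. ATP13A2, a lysosomal polyamine transporter, was 17.5 to 22.3 FPM with DMSO, 78.3 to 85.3 FPM with ATRA, 14.8 FPM in Cfz and 56.7 FPM in ATRA+Cfz. The ATP13A2 differences were 2.01 ± 0.08, -0.42 ± 0.11 and 1.49 ± 0.11. The endolysosomal cation channels TPCN1 (0.95 ± 0.08) and TPCN2 (0.82 ± 0.09) were higher with ATRA, and the sorting receptor SORT1 was lower in each treatment (-1.19 ± 0.07, -0.55 ± 0.09 and -1.89 ± 0.09). With DESeq2 the lower genes of this list were 5, 2 and 7 in the 3 treatments, and without DMSO 3 those in Cfz were 13.

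Of 37 genes of lysosomal nutrient sensing and TFEB control, 6 were higher and 8 lower with ATRA, 5 and 6 in Cfz, and 6 and 13 in ATRA+Cfz. The shares were 16.2% and 21.6%, 13.5% and 16.2%, and 16.2% and 35.1%. With ATRA both lay under the 21.3% and 27.4% of all genes. DEPTOR, an inhibitor of the kinase mTOR, was lower with ATRA (-1.15 ± 0.06) and in ATRA+Cfz (-1.31 ± 0.09). SESN2, a leucine sensor that restrains mTORC1, was higher in the same treatments (0.77 ± 0.08 and 1.55 ± 0.11). The lower genes of this list in Cfz were 3 with DESeq2 or median-ratio scaling and 12 without DMSO 3, and in ATRA+Cfz 8 with DESeq2.

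**Figure D5:**
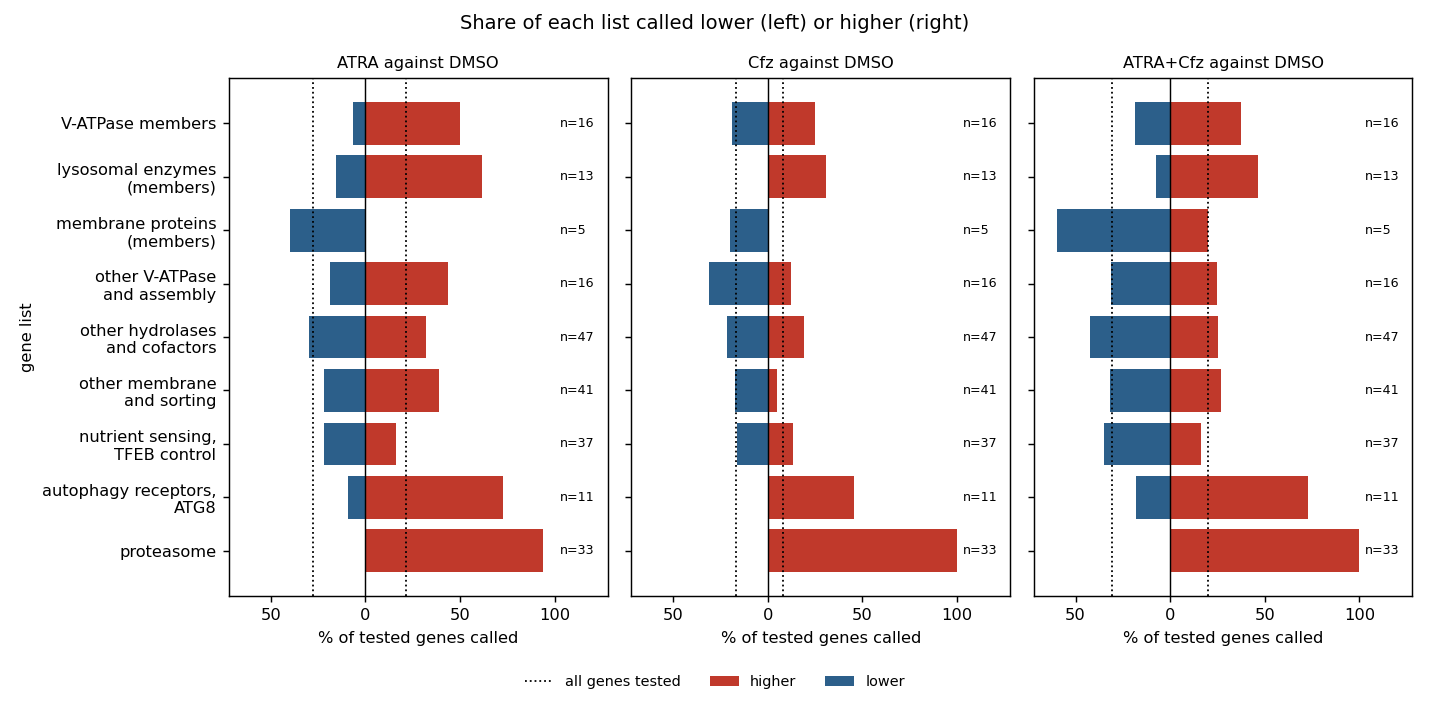
Percentage of tested genes called lower (left of 0) or higher (right of 0) in 3 lists of members and 6 other lists, for each treatment against DMSO; n is the number tested and dotted lines mark the share of all 15827 genes. The members' enzymes are called higher with ATRA at 61.5% beside 21.3% of all genes, and all 33 proteasome genes are called higher in Cfz.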

How the data were processed

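Total RNA of 8 libraries, each read in 4 lanes (32 samples), was sequenced. The submitters' processing notes name kallisto 0.46.2, fastp 0.20.0 and DESeq2. No source used here gives the genome build, the annotation or the strand setting. The authors deposited FPM values per lane, a CPM unit with no scaling to gene length. Whole reads were recovered from the steps of these values for 100% of them, within 0.01 read. Counting error alone enters the floors given. The 4 lanes were averaged per library, after a check that they differed little more than sampling noise (chi-square per degree of freedom 1.21 to 1.26).

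One limma 3.58.1 fit (R 4.3.3, trended empirical Bayes, 4 residual and 7.21 prior degrees of freedom) took the 8 libraries and 4 group means on log2(FPM + 0.5), over 15827 genes with a mean of group means of at least 0.5 FPM. The contrasts were the 3 treatments against DMSO, ATRA+Cfz against ATRA and against Cfz, and the interaction, all taken from it; p-values were adjusted by the Benjamini-Hochberg method over all genes. Alternatives were pseudocounts of 0.1 and 2, no filter and a filter at 2 FPM, median-ratio scaling, robust empirical Bayes, edgeR 4.0.16 and DESeq2 1.42.0 on the recovered reads, each DMSO and ATRA library left out in turn, and fits of the 6 DMSO and ATRA libraries with and without a replicate block. On the recovered reads edgeR called 7748 genes between ATRA and DMSO, beside 7704 with limma. The fit was also run on simulated counts with known changes in the ATRA libraries only and the same dispersion for all genes. The simulation held no library like DMSO 3 and no change in Cfz or ATRA+Cfz. It therefore does not bear on the comparisons with those libraries or on the interaction.

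The members, lists, markers and motifs were chosen with earlier results of these data known. Every library value is given for members called with an absolute log2 difference of at least 0.8 in a treatment against DMSO, for TFEB and TFE3, and for members called in the interaction at 0.5 or more. Library values of SCARB2 and ATP6V1B2, and the ranges given for other members, were chosen after values were seen. Up to 6 called genes of each other list and comparison could be named, those with the largest differences; MITF and the values of a gene named in 1 comparison under the others go beyond this. Overlaps between genes were read from GENCODE release 29 and promoters from RefSeq.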

Additional observations from a re-analysis of the deposited data

Results flagged for a closer look

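Among the 36 genes, 3 differed in their response to ATRA between cells with and without the Cfz pulse, by the test of the interaction in the limma fit of all libraries. The interaction, the ATRA difference after Cfz minus that without Cfz on the log2 scale, was -0.67 for CTSD, -0.62 for GLA and -0.34 for ATP6V1F. In the Cfz library CTSD was at 284 FPM and GLA at 120 FPM, above every ATRA library. None of the 3 calls held in every alternative setting run. The estimates without ATRA 1 were -0.67 for CTSD, -0.66 for GLA and -0.33 for ATP6V1F. Without ATRA 1 the adjusted p was 0.0692 for CTSD, 0.0713 for GLA and 0.128 for ATP6V1F. GLA was also lost without ATRA 2 (0.0674) or ATRA 3 (0.0515), and ATP6V1F with edgeR (0.0528), with DESeq2 (0.0732), without the filter (0.0584) and without any 1 library other than DMSO 3 among those left out. Each side of the comparison after Cfz is 1 library, so the difference has no replicate check there.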

How the results depend on the processing

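Over the alternatives, no direction of a called result reversed. Counts over all 36 members that moved by more than 1.5 times were those of lower calls and of the interaction; counts of the smaller groups also moved among higher calls, for example from 2 to 4 for the V0 genes with ATRA (edgeR, median-ratio scaling) and the V1 genes in Cfz (median-ratio scaling). The cause was not tested. With DESeq2 the lower members were 3 with ATRA (6 in limma), 1 in Cfz (4) and 2 in ATRA+Cfz against Cfz (5), and with median-ratio scaling those in Cfz were 2. Lower calls over all genes also fell with DESeq2, to 3003 with ATRA (4336 in limma), 944 in Cfz (2691) and 1816 in ATRA+Cfz against Cfz (2790). Median-ratio scaling gave 1787 lower in Cfz over all genes. Leaving out 1 library gave 5 to 11 lower with ATRA, 3 to 7 lower in Cfz, 7 to 12 lower in ATRA+Cfz against ATRA, 4 to 8 lower in ATRA+Cfz against Cfz, and 0 to 2 higher and 0 to 5 lower in the interaction; each upper end is without DMSO 3. Members' calls that were higher in Cfz made up 69.2% of calls, 85.7% with median-ratio scaling, 78.6% with edgeR and 90% with DESeq2, and for all genes 31.8%, 47.8%, 42.2% and 53.1%. For members this share was 84.2% with DESeq2 for ATRA (73.9%), 77.3% with edgeR for ATRA+Cfz (66.7%) and 81.8% with DESeq2 for ATRA+Cfz against Cfz (66.7%), and for all genes in the interaction 22.4% with median-ratio scaling and 24% with DESeq2 (43.1%). Median-ratio scaling shifted the median of all genes by at most 0.06. Same-numbered DMSO and ATRA libraries did not deviate together (correlations -0.01, 0.00 and 0.01). The labels state no pairing, and values near 0 cannot exclude a pairing with small shared effects. With a replicate block in limma 16 members were higher and 6 lower, the TFE3 call being lost (adjusted p 0.0634). Genes under 20 FPM in some library, 5 of the 36, are those for which depth limits precision most, and Cfz and ATRA+Cfz rest on 1 library each.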

Other observations

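Genes of the other main routes of protein disposal gave values that set those of the lysosome genes in context. All 33 genes of the constitutive proteasome were called higher in Cfz, with a median log2 difference of 0.85, and all 33 in ATRA+Cfz, with a median of 0.84. With ATRA, 31 of the 33 were higher, with a median of 0.37. Over all genes, 7.94% were higher in Cfz, 20% in ATRA+Cfz and 21.3% with ATRA. PSMC4, an ATPase of the proteasome cap, differed by 0.53 ± 0.04 with ATRA, 1.39 ± 0.05 in Cfz and 1.45 ± 0.05 in ATRA+Cfz, and POMP, which helps to assemble the core, by 0.68 ± 0.04, 0.75 ± 0.06 and 1.10 ± 0.06. The medians of the 36 lysosome and V-ATPase genes were 0.11 with ATRA, 0.03 in Cfz and 0.06 in ATRA+Cfz.

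Of 11 tested autophagy receptors and ATG8 proteins, which bring cargo to the lysosome, 8 were higher and 1 lower with ATRA, 5 higher and 0 lower in Cfz, and 8 higher and 2 lower in ATRA+Cfz. The 0 is from limma, and edgeR, DESeq2 and an unadjusted p under 0.05 also gave 0. The shares were 72.7% and 9.09% with ATRA, 45.5% and 0% in Cfz, and 72.7% and 18.2% in ATRA+Cfz. Those of all genes were 21.3% and 27.4%, 7.94% and 17%, and 20% and 30.5%. The lower genes in ATRA+Cfz were 1 without DMSO 1, DMSO 2 or any 1 of ATRA 1 to 3, and with edgeR, DESeq2, median-ratio scaling or no filter. SQSTM1 (p62), a receptor for ubiquitinated cargo, was 401 to 415 FPM with DMSO, 741 to 755 FPM with ATRA, 1894 FPM in Cfz and 3214 FPM in ATRA+Cfz. GABARAPL1, an ATG8 protein of the autophagosome membrane, was 12.1 to 15.4 FPM with DMSO, 39.8 to 41.8 FPM with ATRA, 61.0 FPM in Cfz and 102 FPM in ATRA+Cfz.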
